A study of Mus musculus with 6 samples.

Results

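The 10 genes described here encode transducin, the G protein of photoreceptors, with the proteins that hold and switch it off. They were chosen by symbol as the rod and cone alpha subunits Gnat1 and Gnat2, the beta subunits Gnb1 and Gnb3, the gamma subunits Gngt1 and Gngt2, phosducin (Pdc), and the RGS9 complex of Rgs9, Rgs9bp and Gnb5. All 10 were among the 24346 gene symbols of each table, and 9 passed the filter on low values, Gnat1 being the exception. The libraries were made from retinas of mice at postnatal day 12. The 3 control libraries came from Panky+/-;Panky-like+/-;Nrl-/- mice and the 3 triple-deficient libraries from Panky-/-;Panky-like-/-;Nrl-/- mice, so both groups lacked Nrl, a transcription factor needed to make rods, and their photoreceptors are largely cone-like. A wild-type retina was not analysed here, so the levels below describe the Nrl-deficient retina and not a change from the normal one. The comparison asks whether loss of Panky and Panky-like altered the transducin machinery of these cone-like cells. Panky is Ankrd33, an ankyrin repeat co-repressor of photoreceptor genes, and Panky-like is taken to be its paralog Ankrd33b, which the labels do not state.

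In a photoreceptor, light-activated opsin loads GTP onto the transducin alpha subunit, which leaves the beta and gamma subunits and activates the phosphodiesterase PDE6. Rods use Gnat1, Gnb1 and Gngt1, and cones use Gnat2, Gnb3 and Gngt2. Phosducin binds the freed beta and gamma subunits. The RGS9 complex ends the response by speeding GTP hydrolysis: Rgs9 is the catalytic part, Gnb5 its obligate partner and Rgs9bp the anchor that ties it to the membrane. Gnb1 and Gnb5 are also used by many other neurons, and Gnb3 and Gnb5 by ON bipolar cells.

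Values are FPKM, fragments scaled to transcript length and library size. Levels of different genes are set side by side on that scale, and rest on transcript lengths from an annotation that was not stated. Changes are given as the triple-deficient mean less the control mean of log2(FPKM + 1), with limma's test and Benjamini-Hochberg adjustment over 14325 genes, and means are given ± SD with n = 3 per group. Ankrd33b was at 33.8 ± 1.45 FPKM in control and 1.5 ± 0.265 FPKM in triple-deficient libraries, and Ankrd33 at 106 ± 2.97 and 55.6 ± 4.66 FPKM (limma adjusted p = 4.56e-07 and 0.00274, n = 3 per group). Nrl was listed at 44.2 ± 5.46 and 52.5 ± 1.16 FPKM (limma adjusted p = 0.861, n = 3 per group), and which part of the gene the deletion takes is not given in the labels. The estimated depth was lowest in triple-deficient 3, at 0.807 times that of control 1, and highest in triple-deficient 1, at 1.21 times. Cone markers were abundant, with Opn1sw, the short-wavelength opsin, at 1545 and 1475 FPKM in the group means. Of 7 rod markers 6 were tested and 0 passed, and 3 had groups that did not overlap, Nrl, Nr2e3 and Pde6a, each with the triple-deficient libraries higher. Over all genes tested 10.5% had groups that did not overlap, 4.86% with the triple-deficient libraries higher. Nr2e3 encodes a nuclear receptor that acts with Nrl in rods, and its level was 3.69 ± 0.0853 and 4.42 ± 0.179 FPKM (limma adjusted p = 0.836, n = 3 per group). Pde6b, a catalytic subunit of the rod PDE6, was at 20.9 ± 2.45 and 19.7 ± 2.05 FPKM in overlapping groups. The rod channel gene Cnga1 was listed at 0 in 3 of 6 libraries and at no more than 0.0171 FPKM in the others. The summed rod markers, 1320 to 1425 FPKM in control and 1382 to 1390 FPKM in triple-deficient libraries, were mostly Sag, the arrestin that cones also use, at 1292 and 1289 FPKM. Summed markers of the pigment epithelium (5 genes) ran from 19.8 to 29.9 FPKM in control and from 12.2 to 18.8 FPKM in triple-deficient libraries. Those of Müller glia (4 genes) ran from 1597 to 1634 and from 1416 to 1550 FPKM. Of these 4 glial genes only Apoe had groups that did not overlap, with means of 599 and 499 FPKM. Glul was at 661 and 661 FPKM, Rlbp1 at 244 and 224 and Slc1a3 at 110 and 116, in overlapping groups. Summed lens markers (3 genes) were at 8.79 FPKM in control 1 against at most 0.207 FPKM elsewhere.

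RefSeq's promoter table for GRCm38.p6, the assembly also called mm10, held 6 of the 10 genes, and 3 of them carried the core motif of Crx, a homeodomain activator of photoreceptor genes, in the 250 bases before the start site. The motif searched was TAATCC on both strands (GGATTA on the other), which 7.21% of the 27025 genes in the table hold in that window. The promoters of Gnat2, Gngt1 and Gnb5 are shown because they place the same letters close to the start of a cone subunit, a rod subunit and a partner of Rgs9. All 3 genes lie on the plus strand, Gnat2 with the window chr3:108092816-108093065, Gngt1 with chr6:3993758-3994007 and Gnb5 with chr9:75306038-75306287. Capitals mark the motif, which spans -19 to -14 in Gnat2, -44 to -39 in Gngt1 and -6 to -1 in Gnb5, counted back from RefSeq's start site. In the RefSeq gene annotation of that build Gnat2 spans chr3:108086788-108101432, Gngt1 chr6:3989082-3997436 and Gnb5 chr9:75306288-75345923. The windows of Gnat2 and Gngt1 thus lie inside the annotated gene, downstream of other starts, and that of Gnb5 directly before it.
Gnat2: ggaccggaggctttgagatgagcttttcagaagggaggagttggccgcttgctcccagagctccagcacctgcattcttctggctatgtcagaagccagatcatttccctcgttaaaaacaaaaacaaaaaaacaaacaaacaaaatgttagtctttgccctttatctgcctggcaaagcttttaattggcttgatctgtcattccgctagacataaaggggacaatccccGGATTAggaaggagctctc
Gngt1: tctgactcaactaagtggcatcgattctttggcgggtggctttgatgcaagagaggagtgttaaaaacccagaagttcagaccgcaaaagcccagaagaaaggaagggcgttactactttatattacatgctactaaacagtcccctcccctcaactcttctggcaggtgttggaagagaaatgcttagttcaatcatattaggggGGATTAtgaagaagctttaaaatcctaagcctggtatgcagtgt
Gnb5: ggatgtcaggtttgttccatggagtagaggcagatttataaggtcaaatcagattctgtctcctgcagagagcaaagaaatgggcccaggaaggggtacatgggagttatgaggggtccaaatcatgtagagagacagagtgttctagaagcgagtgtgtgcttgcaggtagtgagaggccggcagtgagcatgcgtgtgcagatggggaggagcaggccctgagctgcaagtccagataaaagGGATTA
No match was found in the same window of Gnb1, Pdc and Rgs9. The core of the Nrl response element, TGCTGA or TCAGCA on the other strand, was in the window of Rgs9 alone among the 6, against 18% of genes. A match describes letters in a window and not a bound site. Crx itself was at 425 ± 7.95 FPKM in control and 426 ± 20.9 FPKM in triple-deficient libraries (n = 3 per group).

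The cone transducin subunits were among the most abundant transcripts in the tables. Gngt2 ranked first of all 24346 genes in 5 of 6 libraries and second in triple-deficient 1. It stood at 1639, 1569 and 1743 FPKM in control libraries 1, 2 and 3 and at 1435, 1588 and 1648 FPKM in triple-deficient libraries 1, 2 and 3. The ranges overlapped, and triple-deficient 1 was the lowest of the 6. Gnb3 ranked between 6 and 8 in every library. It was at 1074, 1027 and 1061 FPKM in the controls and at 1039, 1090 and 1009 FPKM in the triple-deficient libraries, with the highest and the lowest value both in the triple-deficient group. Gnat2, the cone alpha subunit, ranked between 32 and 46. It was at 557, 572 and 557 FPKM in the controls and at 532, 583 and 568 FPKM in the triple-deficient libraries, which again spanned the controls. Together these 3 genes made up 0.775% to 0.847% of all FPKM per library.

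**Figure D1:**
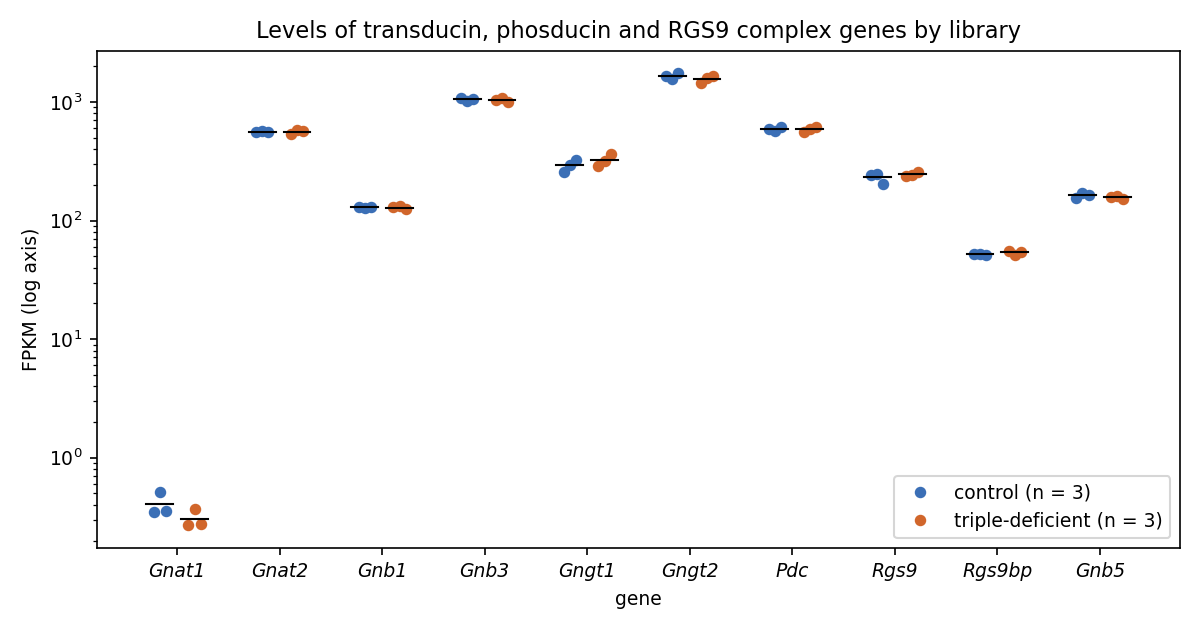
Level of each of the 10 genes in FPKM (log axis), 1 point per library, with the mean of each group as a line (3 control libraries in blue, 3 triple-deficient in orange). Gnat1 lies near 0.3 to 0.5 FPKM, the other genes lie between 50.7 and 1743 FPKM, and the points of the groups overlap for every gene.

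None of the 3 cone subunits passed the test. The fitted log2 change was -0.0036 for Gnat2 (95% confidence interval -0.13 to 0.12), -0.012 for Gnb3 (-0.14 to 0.12) and -0.085 for Gngt2 (-0.26 to 0.087), with limma adjusted p-values of 0.997, 0.990 and 0.958. The Gngt2 change was -0.028 without triple-deficient 1, -0.045 without control 3 and -0.028 under quantile normalization. It was -0.13 without triple-deficient 3 and -0.12 without control 2. The signs of the changes of Gnat2 and Gnb3 are not settled by these data, since they turned under several alternatives. Summed markers of ON bipolar cells (8 genes), which also use Gnb3, ran from 772 to 804 FPKM in control and from 789 to 853 FPKM in triple-deficient libraries. What these cells add to the Gnb3 value was not tested. In whole retina, fewer cells of a type and less RNA per cell cannot be told apart. The exons of Gngt2 share 234 bases with Abi3, a gene on the opposite strand at 18.8 to 24.1 FPKM. Those of Gnb5 share 248 bases with Gm19531, an antisense gene with no value under that symbol. Whether the authors' values use strand is not given in the sources used here.

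The rod subunits differed sharply from one another in level. Gnat1 was at 0.345, 0.514 and 0.356 FPKM in control libraries 1, 2 and 3 and at 0.269, 0.367 and 0.277 FPKM in triple-deficient libraries 1, 2 and 3. At the estimated relative depths these values are whole multiples, within 0.5%, of the value of 1 fragment, and they correspond to 17, 28 and 18 fragments in the controls and 16, 17 and 11 in the triple-deficient libraries. The groups overlapped, through triple-deficient 2. Gnat1 lay below the filter. A fit with no filter gave it a log2 change of -0.11 with SE 0.060 (limma adjusted p = 0.954), on a scale that understates changes at such levels. Gnb1 was at 129, 128 and 130 FPKM in the controls and at 130, 132 and 124 FPKM in the triple-deficient libraries, which enclosed the controls. Of the 10 genes it varied least, with a coefficient of variation of 1.90% over the 6 libraries, and the log2 change was -0.0065 (95% confidence interval -0.10 to 0.092, limma adjusted p = 0.994).

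Gngt1, the rod gamma subunit, was an abundant transcript despite the loss of Nrl. It was at 258, 296 and 325 FPKM in control libraries 1, 2 and 3 and at 289, 317 and 367 FPKM in triple-deficient libraries 1, 2 and 3. The groups overlapped, control 1 being the lowest and triple-deficient 3 the highest. The log2 change of 0.15 (95% confidence interval -0.098 to 0.39, limma adjusted p = 0.948) was the largest of the 9 genes tested and did not pass. The coefficient of variation was 12.0% over the 6 libraries, against 6.39% for Gngt2. With control 1 left out the change was 0.057, without triple-deficient 3 it was 0.054, without control 3 it was 0.22, without triple-deficient 1 it was 0.23, and with the trend in base composition and length removed it was 0.096. The longest transcript of Gngt1 has a GC content of 36.7%, and the deviation of triple-deficient 3 from the mean of the 6 libraries had a Spearman correlation of -0.59 with GC content, against 0.065 to 0.30 in the other libraries. That correlation runs over genes, which are no replicates. Pdc, with a GC content of 37.8%, had a log2 change of -0.0069 in the same libraries. With the trend in base composition and length removed, the Pdc change was -0.054. The part of base composition in the Gngt1 values was not tested beyond these numbers.

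The rod to cone ratios set these levels against each other within each library. The ratio of Gnat1 to Gnat2 was 0.0488% to 0.0898%, so that Gnat2 exceeded Gnat1 by 1113 to 2051 times. The ratio of Gnb1 to Gnb3 was 12.0% to 12.5%. The ratio of Gngt1 to Gngt2 was 15.7% to 22.2%. The rod gamma and beta isoforms were thus present at a far larger fraction of their cone counterparts than the rod alpha isoform, in all 6 libraries, and for Gnb1 that includes transcripts of other neurons.

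**Figure D2:**
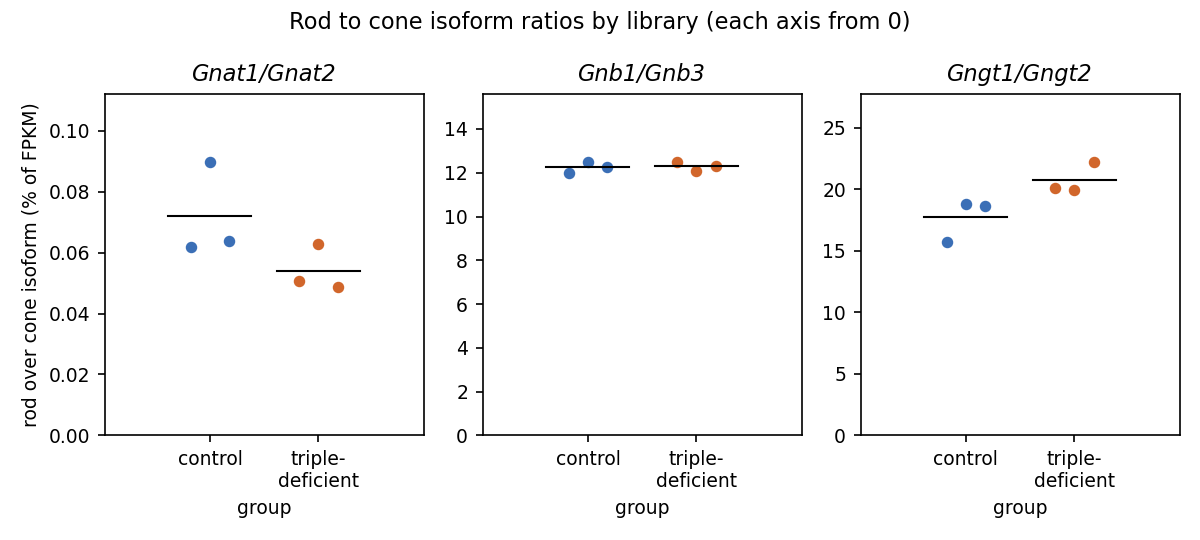
Ratio of the rod to the cone isoform in FPKM, as a percentage, in each library, with group means as lines (3 control libraries in blue, 3 triple-deficient in orange, and each axis from 0 with its own scale). The Gngt1 to Gngt2 ratio is above all controls in the 3 triple-deficient libraries, and the groups overlap for the other pairs.

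Of 7 ratios compared, 1 had groups that did not overlap, and none passed, since 3 libraries against 3 cannot give an exact two-sided permutation p below 0.1. The Gngt1 to Gngt2 ratio was 0.157, 0.188 and 0.187 in control libraries 1, 2 and 3 and 0.201, 0.200 and 0.222 in triple-deficient libraries 1, 2 and 3. The mean was 0.177 ± 0.0175 in control and 0.208 ± 0.0126 in triple-deficient libraries (SD, n = 3, exact permutation p = 0.1, 0.467 adjusted over the 7 ratios). On the log2 scale the difference was 0.23. It was 0.15 without control 1, 0.18 without triple-deficient 3 and 0.16 with the trend in base composition and length removed. With each library left out in turn it ran from 0.15 to 0.28. Control 1, the library with the lowest ratio, was also the one with lens transcripts, whose part was not tested. The groups did not overlap for 10.5% of all single genes tested, and such a share was not computed for ratios between genes.

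The other ratios between isoforms overlapped between the groups. For Gnb1 to Gnb3 the means were 0.122 ± 0.00246 and 0.123 ± 0.00206, a log2 difference of 0.0053 (n = 3, exact permutation p = 0.8). For Gnat1 to Gnat2 the log2 difference was -0.40 (exact permutation p = 0.2), in values that rest on 11 to 28 fragments of Gnat1. Without control 2, the library with the highest ratio, it was -0.23. With each library left out in turn it ran from -0.51 to -0.23. The cone subunits stood at unequal levels. Gnb3 stood at 1.78 to 1.95 times Gnat2, and Gngt2 at 2.70 to 3.13 times Gnat2. The log2 differences between the groups were -0.0081 and -0.082 (exact permutation p = 0.9 and 0.2), and the latter was -0.035 without control 3 and -0.13 without control 2. The adjusted p of the 7 ratios ran from 0.467 to 0.9.

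Within the whole family of G protein subunits, the cone isoforms made up most of the beta and gamma transcripts. Gnb3 was 69.1% to 70.5% of the summed FPKM of 5 beta genes, followed by Gnb5 with 10.05% to 11.5%, Gnb2 with 9.95% to 11.3% and Gnb1 with 8.41% to 8.70%. Gngt2 was 69.1% to 73.2% of 12 gamma genes, followed by Gngt1 with 11.5% to 15.4% and Gng13, a gamma subunit of ON bipolar cells, with 5.04% to 5.72%. Among 16 alpha genes Gnat2 shared the lead. It held 34.7% to 37.9%, Gnas, the stimulatory alpha subunit, 35.4% to 38.1%, and Gnao1, the alpha subunit of mGluR6 signalling in ON bipolar cells, 11.5% to 12.3%. Gnat1 held 0.0176% to 0.0330%.

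**Figure D3:**
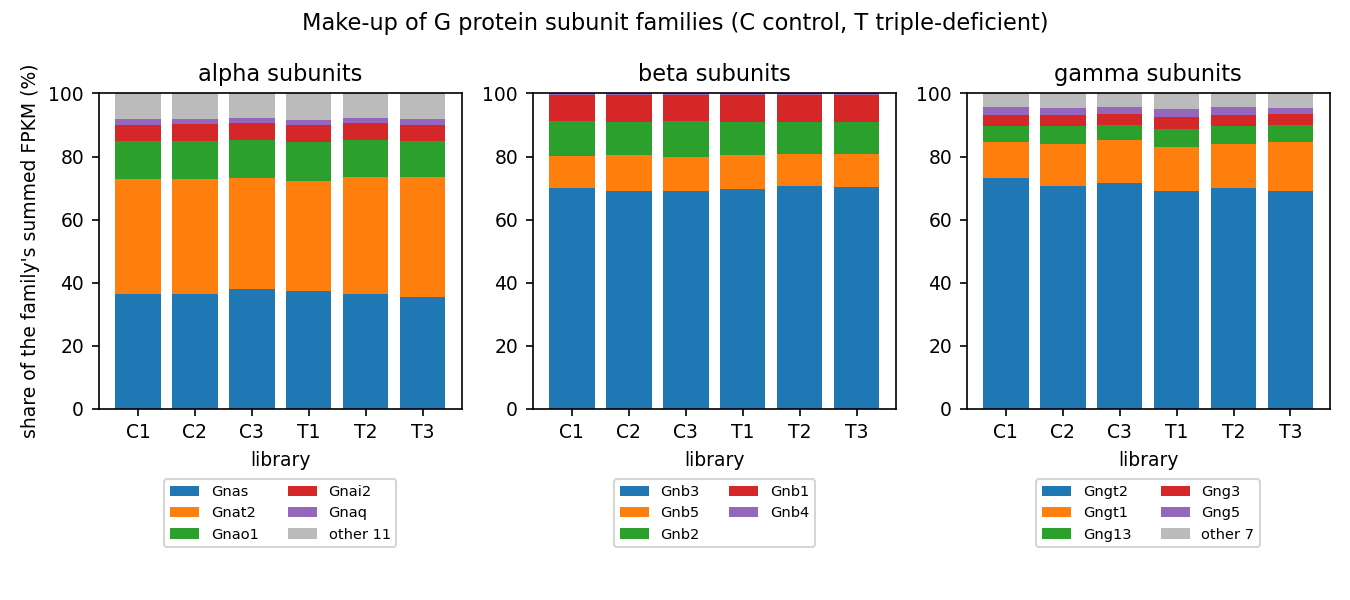
Share of each gene in the summed FPKM of its subunit family (percent) for the 6 libraries, control C1 to C3 and triple-deficient T1 to T3. Gnb3 and Gngt2 take 69.1% to 73.2% of the beta and gamma sums in every library, while Gnat2 and Gnas take similar shares of the alpha sum.

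Phosducin was expressed at the level of the cone alpha subunit. Pdc was at 587, 566 and 615 FPKM in control libraries 1, 2 and 3 and at 559, 587 and 614 FPKM in triple-deficient libraries 1, 2 and 3, so the groups overlapped. Pdc and Gnat2 overlapped in range, Pdc being the higher in 5 of 6 libraries. The 95% confidence interval of its log2 change was -0.14 to 0.13 (limma adjusted p = 0.997).

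The catalytic subunit was the most abundant transcript of the RGS9 complex and the anchor the least. Rgs9 was at 243, 246 and 205 FPKM in control libraries 1, 2 and 3 and at 237, 241 and 258 FPKM in triple-deficient libraries 1, 2 and 3. The groups overlapped, with control 3 below the other 5 libraries. The log2 change was 0.090 (95% confidence interval -0.087 to 0.27, limma adjusted p = 0.958). It was 0.0047 without control 3, 0.052 without triple-deficient 3 and 0.034 with array quality weights. With each library left out in turn it ran from 0.0047 to 0.14. Rgs9bp was at 51.9, 52.3 and 50.9 FPKM in the controls and at 55.8, 50.7 and 54.8 FPKM in the triple-deficient libraries, whose range enclosed the controls. Its log2 change was 0.054 (95% confidence interval -0.059 to 0.17, limma adjusted p = 0.958), and it was 0.027 without triple-deficient 1 and 0.094 without triple-deficient 2. Gnb5 was at 154, 171 and 164 FPKM in the controls and at 159, 161 and 151 FPKM in the triple-deficient libraries, in overlapping groups. Its log2 change was -0.051 (95% confidence interval -0.17 to 0.070, limma adjusted p = 0.959), and it was -0.090 without control 1, -0.017 without control 2 and -0.025 without triple-deficient 3.

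Rgs9bp stood at 21.01% to 24.9% of Rgs9, and Gnb5 at 58.6% to 79.9% of it. The mean ratio of Rgs9bp to Rgs9 was 0.225 ± 0.0206 in control and 0.219 ± 0.0142 in triple-deficient libraries (SD, n = 3, exact permutation p = 0.5). The mean ratio of Gnb5 to Rgs9 was 0.709 ± 0.0839 and 0.641 ± 0.0477 (exact permutation p = 0.4). The log2 difference of -0.14 between them was -0.052 without control 3, -0.078 without triple-deficient 3 and -0.22 without control 1. Control 3 gave the highest value of both ratios. Rgs9 was 78.6% to 82.0% of the summed FPKM of the R7 family, to which Rgs6, Rgs7 and Rgs11 also belong and which shares Gnb5 as partner. The tables hold 1 value per gene, so the splice forms of Rgs9 and Gnb5 that differ between retina and brain cannot be told apart.

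Across the set, 0 of 9 genes tested passed the adjusted threshold of 0.05, where 4 of 14325 genes did (0.0279%), namely Ankrd33, Ankrd33b, Klk1b22 and Snord22. None of the 9 reached an unadjusted p below 0.05 either, against 5.09% of all genes, and in none did the groups stand apart, where 10.5% of all genes had groups that did not overlap, 4.86% with the triple-deficient libraries higher and 5.64% with them lower. Of the changes, 3 were above 0 and 6 below 0, with a median of -0.0065, against 0.0034 over all genes tested. The intervals of the 9 genes ran from -0.26 to 0.39. The upper end is that of Gngt1, and the widest of the other 8 reached -0.26 for Gngt2 and 0.27 for Rgs9. An adjusted p above the threshold does not show that a level was equal in both groups, and these intervals give the changes that the data still allow.

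**Figure D4:**
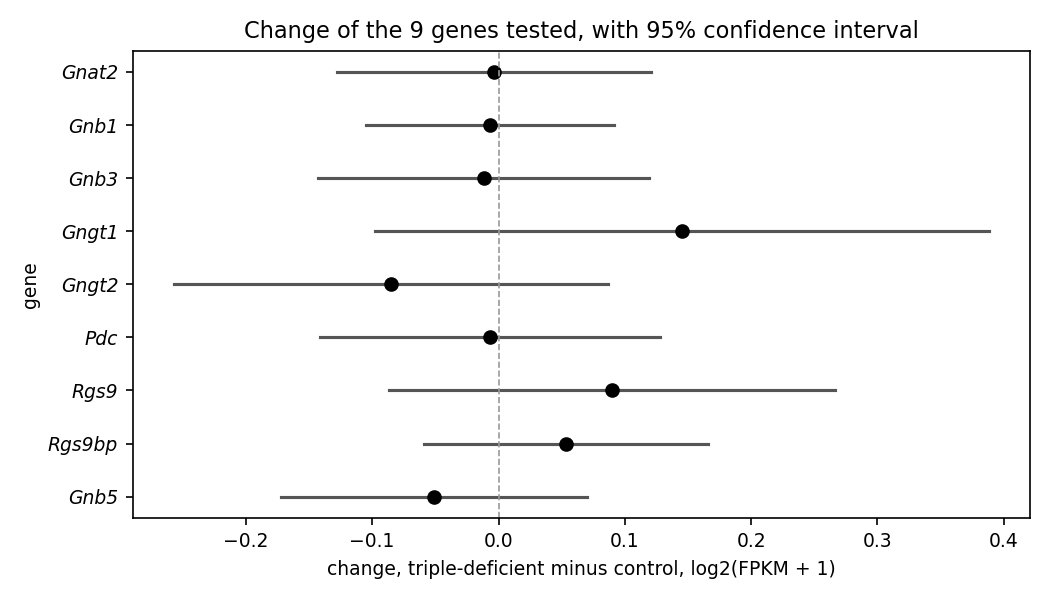
Change of the 9 genes tested between triple-deficient and control libraries on the log2(FPKM + 1) scale (points), with 95% confidence intervals from limma (lines). Every interval holds 0, and that of Gngt1, from -0.098 to 0.39, is the widest.

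In level, the genes fell in the order Gngt2, Gnb3, Pdc, Gnat2, Gngt1, Rgs9, Gnb5, Gnb1, Rgs9bp and Gnat1. The ranges over 6 libraries overlapped for Pdc with Gnat2 and for Gngt1 with Rgs9, and for no other neighbours in that order. Gngt1 exceeded Rgs9 in each of 6 libraries. The genes most like Gnat2 in pattern over the 6 libraries, among 7854 with a mean of at least 10 FPKM, were Cdc123, Id2 and Odc1, with Pearson r of 0.973, 0.961 and 0.961. They were picked as the highest of these genes, and the r to be expected by chance was not computed. Gnat2 itself had a coefficient of variation of 3.13% over the 6 libraries. For the other members above that mean, r to Gnat2 ran from -0.63 for Rgs9bp to 0.46 for Gngt2, the latter being rank 987 in that order. These r are a description over 6 points that share libraries and depth.

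The partners of the set showed no change past the threshold. Of 21 tested genes among 22 other phototransduction genes, 0 passed over all genes, with a median log2 change of -0.0023. An unadjusted limma p below 0.05 was found for 4 of them, against 5.09% of all genes. The groups did not overlap for 4 (19.0%, against 10.5% of all genes). Pde6a, a catalytic subunit of the rod PDE6 that Gnat1 activates, was at 12.8 ± 1.22 FPKM in control and 19.5 ± 2.72 FPKM in triple-deficient libraries, a log2 change of 0.56 (SE 0.10, n = 3 per group, limma adjusted p = 0.448). Slc24a1, the rod exchanger, was at 4.63 ± 0.600 and 5.63 ± 0.228 FPKM, and Gucy2f, a photoreceptor guanylate cyclase, at 2.63 ± 0.501 and 3.33 ± 0.175 FPKM. The groups did not overlap for Pde6a, Slc24a1 and Gucy2f, all higher in triple-deficient libraries, nor for the cone marker Pde6h, which was lower. Pde6h was at 906 ± 7.37 and 818 ± 67.9 FPKM (log2 change -0.15, limma adjusted p = 0.943, n = 3 per group). Slc24a2, the cone exchanger, passed when triple-deficient 3 was left out (log2 change -0.97, limma adjusted p = 0.0141) and not otherwise (log2 change -0.62 and 0.940 with all libraries, 0.0141 to 0.998 over the alternatives). It was singled out after its values were seen.

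Other G protein genes held 0 calls. Of 12 tested alpha genes 1 had an unadjusted p below 0.05, against 5.09% of all genes, and the same gene had groups that did not overlap (8.33%, against 10.5% of all genes). It was Gnai1, an inhibitory alpha subunit, at 13.3 ± 0.716 FPKM in control and 15.1 ± 0.646 FPKM in triple-deficient libraries. Gnal and Gnaq followed with log2 changes of 0.064 and 0.045. Of 12 tested beta and gamma genes, Gnb2, Gng8 and Gng10 had the smallest p, with log2 changes of -0.12, -0.21 and 0.15. Of 6 R7 relatives and anchors the group was led by Gpr179, the receptor that anchors R7 proteins in ON bipolar cells, at 32.2 ± 1.66 and 34.8 ± 0.644 FPKM, while Rgs11 and Rgs7 had log2 changes of -0.079 and -0.0053.

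The phosducin relatives, chaperones and trafficking factors of G proteins (19 tested) also held 0 calls, with a median log2 change of 0.037. Of these, 1 had an unadjusted limma p below 0.05, against 5.09% of all genes. For 3 the groups did not overlap (15.8%, against 10.5% of all genes). Gpsm2, a regulator that binds inactive alpha subunits, was at 6.59 ± 0.400 FPKM in control and 7.42 ± 0.135 FPKM in triple-deficient libraries. Unc119, which carries acylated transducin alpha in photoreceptors, was at 566 ± 15.5 and 516 ± 38.0 FPKM, with all triple-deficient libraries below all controls and a log2 change of -0.14 (SE 0.065, n = 3 per group, limma adjusted p = 0.943). That change was -0.074 without triple-deficient 3, -0.081 under quantile normalization and -0.087 with array quality weights. It was -0.049 with the trend in base composition and length removed. With each library left out in turn it ran from -0.17 to -0.074. Pdcl, the phosducin-like protein that helps assemble beta and gamma subunits, was at 30.1 ± 0.469 and 31.9 ± 1.59 FPKM.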

How the data were processed

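RNA from freshly isolated retinas was taken up in TRIzol and made into stranded TruSeq mRNA libraries, per the labels' protocols. Each of 6 libraries has 1 deposited table of FPKM values for 24346 gene symbols. Cufflinks 2.2.1, Cuffdiff, Bowtie2 2.3.5.1, TopHat2 2.1.1 and mm10 are named in the submitters' processing notes, without role or settings. Strand counting, annotation and multimapping were not stated. FPKM were used as the authors deposited them. Their sums were 385962 to 396697 per library. No read totals were given, and relative depth was taken from the steps of values below 0.3 FPKM, and absolute depth, an estimate, from single-transcript genes. No counts were rebuilt for testing.

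The 14325 genes whose mean reached 0.5 FPKM were tested on log2(FPKM + 1) by limma 3.58.1 (R 4.3.3; trended prior variance), two-sided, with p-values adjusted by Benjamini-Hochberg over all genes tested. The fit was tested on simulated data. Ratios were compared by exact permutation (scipy 1.17.1), adjusted over 7 ratios. The labels do not say that each library is from its own animal, so p-values cover the spread between these samples. The design text speaks of littermate pairs, but no label ties a number to a pair, so the main fit used no replicate block.

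The genes and lists were chosen with earlier results of these data known. Named genes are the 10 members, the targeted genes, Nrl and Crx, the 3 genes of each of 5 lists with the smallest p, and the 3 genes most like Gnat2. Some genes outside that rule were named after their values were seen. They are the genes called over all genes, Slc24a2, the overlapping gene Abi3 and the family members Gnas, Gnao1, Gng13 and Rgs6. The marker genes Opn1sw, Cnga1, Sag, Nr2e3, Pde6b, Pde6h, Apoe, Glul, Rlbp1 and Slc1a3 were also named in this way. Gm19531, which has no value, was named for its overlap with Gnb5. Ric8a and Rp2 stand in the tables as Ric8 and Rp2h. Alternatives were other pseudocounts, filters, scalings, limma options, base composition and length correction from GENCODE M21, the replicate block and leaving out each library. A marker gene of the lists is not reported here.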

Additional observations from a re-analysis of the deposited data

How the results depend on the processing

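The number of genes of the set past the threshold stayed at 0 in each of 18 alternatives, and the smallest adjusted p of the 9 genes was 0.730, for Gngt1 without triple-deficient 1. No change that turned in sign had passed the threshold. Under quantile normalization the log2 change was 0.056 for Gnat2, 0.011 for Gnb1 and 0.060 for Pdc. Under array quality weights it was 0.0099 for Gnat2, 0.016 for Gnb1 and 0.021 for Gnb3. With the trend in GC content and length removed, with or without the replicate block, it was 0.035 for Gnb3 and -0.0026 for Crx, and without the block the log2 ratio was -0.049 for Gnb1 to Gnb3 and 0.047 for Gnb3 to Gnat2. Leaving out 1 library gave log2 changes of -0.033 to 0.034 for Gnat2, -0.023 to 0.017 for Gnb1, -0.042 to 0.014 for Gnb3, -0.040 to 0.027 for Pdc, -0.032 to 0.039 for Crx, -0.14 to 0.0024 for Rgs11 and -0.035 to 0.054 for Rgs7. For the log2 ratios it gave -0.0093 to 0.020 for Gnb1 to Gnb3, -0.042 to 0.027 for Gnb3 to Gnat2 and -0.088 to 0.039 for Rgs9bp to Rgs9. The cause was not tested. The other phototransduction genes past the threshold numbered 0 to 1 when 1 library was left out, the 1 being Slc24a2. Over all genes the count was 4, against 2 with no filter, 2 with robust shrinkage and 3 to 11 with 1 library left out (8 without control 3, 11 without triple-deficient 1 and 11 without triple-deficient 3).

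Libraries of the same number deviated together with correlations of 0.022, 0.11 and 0.067 across genes. Between libraries of different number the correlations ran from -0.19 to 0.12. The numbers were not taken to pair the libraries, since no label does so. With the replicate block, 4 genes passed over all genes and 0 of the set. Gngt1 was higher, and Gnat1 lower, in the triple-deficient library of each number. For Gngt1 the unadjusted p was 0.0308 with the block (adjusted 0.920, log2 change 0.15) and 0.206 without it. The block gave an exact p of 0.25 for the ratio of Gngt1 to Gngt2, the smallest that 3 pairs allow. With 3 libraries a group, the ratios could not pass any threshold below 0.1, and Gnat1, at 11 to 28 fragments a library, was below the filter.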
